A study of Mus musculus with 4 samples.

Results

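The genes described here encode the constitutive proteasome: 44 mouse genes whose symbol is Psma, Psmb, Psmc, Psmd, Psme or Psmg followed by a number. They were picked by symbol, not by signal, from the array probes that carry a RefSeq transcript accession. Pseudogenes and the immunoproteasome genes Psmb8, Psmb9 and Psmb10 were left out. All 44 genes matched a probe, through 55 probes, among 32585 genes and other features on the array. By role they fall into 8 genes of the outer (alpha) rings of the core, 8 of its inner (beta) rings, 9 of the base, 8 of the lid, 4 activators and 7 assembly factors.

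The samples were B cells of mouse spleen depleted of cells with CD43, a surface protein that resting follicular B cells lack. The donors were Aff3-/- mice and, for comparison, Aff3+/- mice, which also lack 1 working copy of Aff3, the gene of a nuclear AF4/FMR2 family protein. Both genotypes were cultured with 10 ug/mL of LPS, a TLR4 ligand, and 10 ng/mL of IL-4 for 3 days, which activates B cells and drives their division and class switching. The age, sex and strain of the mice and the design of the Aff3 allele are not given in the sources used here. One Cy3-labelled RNA sample was read on each of 4 Agilent arrays, 2 per genotype, and both genotypes carry the replicate numbers 1 and 2 in their labels. Whether each replicate was a different mouse is not stated. The p-values therefore reflect the spread between these samples, which may be technical.

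Each array detected 24947 to 25869 of 39429 probes well above background, with no saturated gene spot. Of the 8 B cell markers looked for, 8 were well above background on every array, against 6 of 8 T cell, 2 of 5 NK cell, 4 of 7 myeloid and 1 of 3 erythroid markers. The erythroid marker Hbb-b1 matched no probe and is not counted. Aff3 itself could not be checked, since its 7 accessions matched no probe, and the genotypes rest on the labels. Values below are log2 signals relative to the 75th percentile of the same array. They compare arrays for 1 probe, not 1 gene with another. In RNA of a bulk culture, fewer cells with a transcript and less of it per cell cannot be told apart.

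The proteasome degrades proteins tagged with ubiquitin. Its core particle is a barrel of stacked alpha and beta rings with the proteolytic sites inside, and the regulatory particle caps it with a base, whose ATPases unfold the substrate, and a lid, which removes ubiquitin. Activators such as PA28 are alternative caps, and dedicated chaperones guide assembly. In mammalian cells the transcription factor NRF1, the product of Nfe2l1, raises proteasome genes together when proteolysis is short, and dividing or antibody-secreting B cells have a large protein load.

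Proteasome transcripts differed little between Aff3-/- and Aff3+/- cells. Of the 44 genes, 42 entered the fit, which required detection above background on both arrays of either genotype. These 42 were detected on all 4 arrays. Among them 30 were higher and 12 lower in Aff3-/- cells, with a median log2 difference of +0.03 against -0.01 over all 20650 features. The differences ran from -0.08 for Psmd10 to +0.13 for Psmg2, and 40 of 42 (95.2%) were under 0.1 in size, against 63.4% of all features. No member passed the adjusted threshold of 0.05 (limma with Benjamini-Hochberg adjustment over all features, adjusted p = 1.00 for each), where 0% of all features did. At an unadjusted p under 0.05 the counts were 0 members and 420 features (2.03%, with 0.857% higher and 1.18% lower in Aff3-/- cells).

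No member separated the genotypes. For 0 of 42 genes were both arrays of one genotype above both of the other, while 19.5% of all features did so (8.35% with Aff3-/- higher and 11.2% with Aff3-/- lower). The 95% interval of the log2 difference excluded a 2-fold change in either direction for 42 of 42 genes and a 1.5-fold change for 34, against 92.1% and 68.2% of all features. The widest interval, that of Psmd1, reached 1.78-fold. The small tilt upward depended on which array was left out. Leaving out Aff3+/- replicate 1 gave a members' median of -0.06 and leaving out Aff3-/- replicate 2 one of -0.11. With Aff3-/- replicate 1 left out it was +0.17, and with Aff3+/- replicate 2 left out +0.11.

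**Figure D1:**
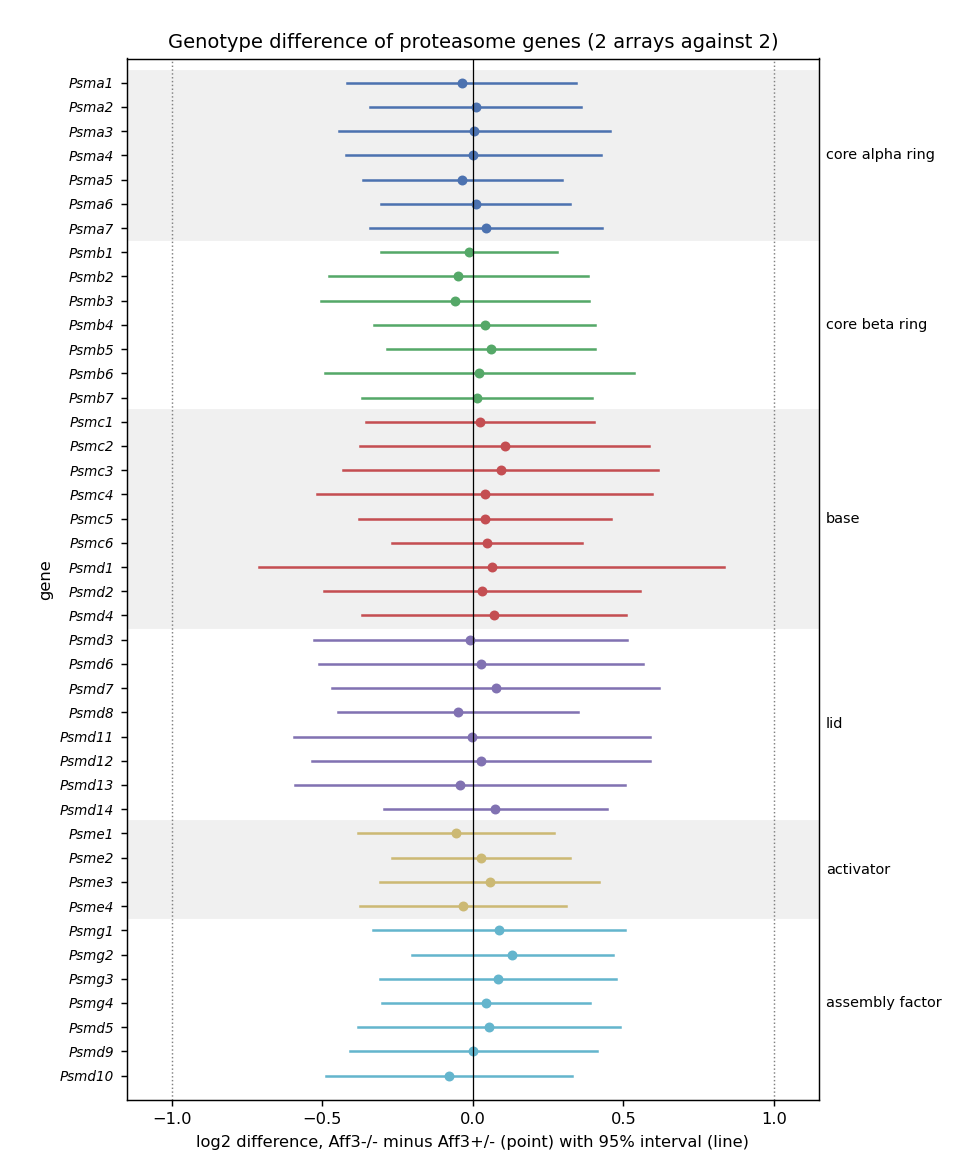
Log2 difference between Aff3-/- and Aff3+/- cells (x axis, point) with its 95% interval (line) from limma for the 42 proteasome genes tested (y axis), shaded by role group; dotted lines mark a 2-fold change. Points lie between -0.08 and +0.13, and each interval includes 0 and stays inside the dotted lines.

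These genes differed more between the arrays of 1 genotype than between genotypes. In Aff3+/- cells 39 of 42 genes were higher on the array of replicate 2 than on that of replicate 1, and in Aff3-/- cells 38 of 42. The median gap was +0.18 in Aff3+/- and +0.27 in Aff3-/- cells, where the median over all features was -0.002 and -0.02. In both genotypes at once 38 genes (90.5%) were higher on the replicate 2 array, against 36.0% of all features. For 39 of 42 genes (92.9%) the genotype difference was smaller than either within-genotype gap, which held for 61.8% of all features. The signed gap, replicate 2 minus replicate 1, was greater in Aff3-/- than in Aff3+/- cells for 38 of 42 genes (90.5%), against 48.6% of all features. No test was made of the gap, since a replicate number is no condition of the study.

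The gap kept its direction and nearly its size under other scalings. It was +0.16 and +0.25 (Aff3+/- and Aff3-/-) with quantile normalization and +0.18 and +0.26 with normexp background correction. Scaling arrays on the median of probes above background gave +0.20 and +0.32, where the median gaps over all features were +0.03 and +0.02. The deposited values, which hold 30 of the 42 genes, gave +0.18 and +0.33, where those over the 12559 features compared there were -0.04 and +0.07. Some other transcripts of the culture differed along with it. Of the 8 B cell markers 7 were lower on both replicate 2 arrays, against 39.5% of all features, and the list's summed signal, in units of the array's 75th percentile, was 256 and 232 in Aff3+/- replicates 1 and 2 and 264 and 217 in Aff3-/- replicates 1 and 2. Among plasma cell markers 4 of 4 were higher on both (3 of 4 with quantile normalization or normexp), with sums of 40.1 and 45.7 in Aff3+/- and 46.3 and 50.3 in Aff3-/- cells. For Prdm1 the gap in Aff3-/- cells was +0.005. Of the 4 myeloid markers tested 3 were lower on both (2 of 4 with normexp), with sums of 8.63 and 7.44 in Aff3+/- and 7.84 and 7.18 in Aff3-/- cells, while Lyz2, S100a8 and S100a9 did not pass the filter. T cell markers were split, with 2 of the 7 tested higher and 2 lower on both. Of the 2 NK cell markers tested 1 was higher and 1 lower on both (2 lower with normexp). The part of these markers in the gap was not tested.

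**Figure D2:**
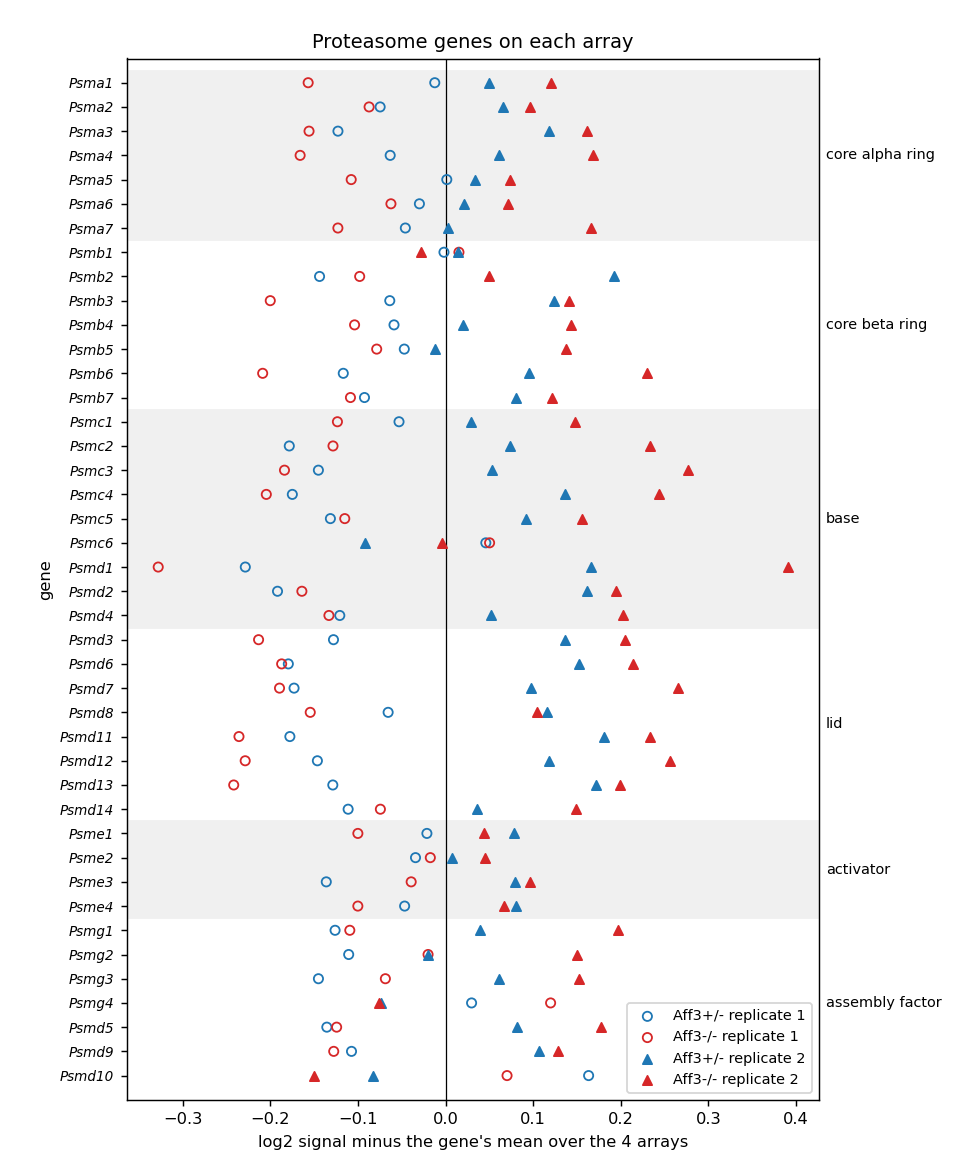
Signal of each of the 42 proteasome genes (y axis) on each array, as the log2 value minus the gene's mean over the 4 arrays (x axis); open circles are replicate 1 and filled triangles replicate 2, blue for Aff3+/- and red for Aff3-/-. In most rows both triangles lie right of both circles, while red and blue are interleaved.

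**Figure D3:**
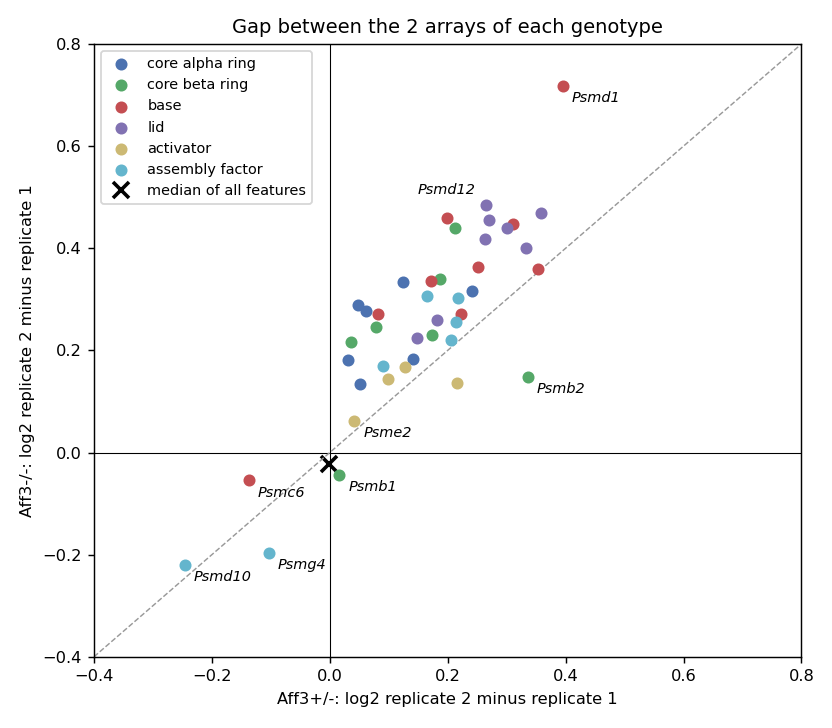
Replicate 2 minus replicate 1 (log2) in Aff3+/- cells (x axis) and Aff3-/- cells (y axis) for the 42 genes, coloured by role group, with a dashed line of equal gaps and a cross at the median of all features. Of the 42 points 38 lie in the upper right quadrant, and Psmd1 is farthest out at 0.39 and 0.72.

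Since these genes varied together across arrays, their promoters were searched for 4 motifs on both strands: TGACNNNGC, the antioxidant response element that NRF1 and NRF2 bind, CCAAT for NF-Y, GGGCGG for Sp1 and CCGGAAG for ETS factors. The RefSeq table (GRCm38.p6) held 39 windows, from 250 bases before to 50 after the start, for 36 of the 44 genes. Psma8, Psmb1, Psmb2, Psmb7, Psmc3, Psmd3, Psmd7 and Psmg2 had none there. The ETS motif stood in 15 windows (38.5%) of 14 genes, against 8.86% of all 32851 windows and 16.0% of those of tested genes. It was in 6 of 9 base windows (both Psmc2 windows among them), 4 of 6 lid, 2 of 5 activator and 2 of 6 assembly factor windows. In the core it was in 1 of 8 alpha ring and 0 of 5 beta ring windows. CCAAT was in 5 of 8 alpha ring, 2 of 5 beta ring, 3 of 9 base and 1 of 6 lid windows. It was in 1 of 5 activator and 1 of 6 assembly factor windows, and in 33.3% of member windows against 37.4% of all. The antioxidant response element was in 6 member windows (15.4%, against 12.4% of all), and GGGCGG in 23 (59.0%, against 35.7% of all and 57.6% of windows of tested genes). Of 18 ETS matches 15 began no more than 100 bases before the start, and 1 overlapped another motif. Whether any motif goes with the gap between replicates was not tested.

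The 250 bases before the start are shown for 5 genes, with matches to any of the 4 motifs in capitals, written 5′ to 3′ on the gene's strand. The first pair are lid genes with an ETS match near the start and wide gaps between replicates, the third a base ATPase with both ETS and CCAAT (1 of its 2 windows), the fourth a catalytic subunit with the antioxidant response element at the start, and the last an assembly factor that lay lower on both replicate 2 arrays. An ETS match and a wide gap did not always go together. Psmd1, with the widest gap, had no ETS match, and Psmc6, which had one, was lower on both replicate 2 arrays.
Psmd12, chr11:107479278-107479527, plus strand: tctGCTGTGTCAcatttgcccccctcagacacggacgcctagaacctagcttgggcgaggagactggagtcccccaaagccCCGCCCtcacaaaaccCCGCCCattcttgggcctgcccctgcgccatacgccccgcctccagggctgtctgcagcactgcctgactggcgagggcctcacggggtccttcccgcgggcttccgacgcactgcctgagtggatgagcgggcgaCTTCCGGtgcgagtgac
Psmd11, chr11:80428365-80428614, plus strand: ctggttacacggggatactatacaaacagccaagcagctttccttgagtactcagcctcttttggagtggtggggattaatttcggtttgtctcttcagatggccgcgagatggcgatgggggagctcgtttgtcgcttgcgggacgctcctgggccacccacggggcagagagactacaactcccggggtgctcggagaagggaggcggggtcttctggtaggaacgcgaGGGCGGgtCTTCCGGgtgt
Psmc2, chr5:21785025-21785274, plus strand: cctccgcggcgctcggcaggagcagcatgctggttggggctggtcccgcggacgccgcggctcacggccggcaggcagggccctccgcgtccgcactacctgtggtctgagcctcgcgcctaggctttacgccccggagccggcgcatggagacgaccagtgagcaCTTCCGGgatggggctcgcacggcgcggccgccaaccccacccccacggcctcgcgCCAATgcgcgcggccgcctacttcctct
Psmb6, chr11:70525107-70525356, plus strand: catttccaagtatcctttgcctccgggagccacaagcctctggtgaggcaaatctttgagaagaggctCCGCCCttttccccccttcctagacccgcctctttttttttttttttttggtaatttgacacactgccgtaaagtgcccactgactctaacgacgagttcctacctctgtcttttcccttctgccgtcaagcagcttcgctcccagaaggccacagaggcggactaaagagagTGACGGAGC
Psmd10, chrX:140956712-140956961, minus strand: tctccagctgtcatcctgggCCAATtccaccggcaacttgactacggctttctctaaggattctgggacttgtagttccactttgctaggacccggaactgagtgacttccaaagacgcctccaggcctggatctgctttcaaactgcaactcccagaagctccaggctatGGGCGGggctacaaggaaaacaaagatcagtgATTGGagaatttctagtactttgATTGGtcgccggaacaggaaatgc
In Psmd12 the ETS match ends 11 bases before the start and reads on the opposite strand, as in Psmd11, where it ends 5 bases before. In Psmb6 the antioxidant response element covers the last 9 bases before the start.

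The alpha rings form the gate of the core and touch the caps. Their 7 tested genes differed between genotypes by -0.04 to +0.04, with a median of +0.005. Psma1 (the alpha6 subunit) stood at 4.75 and 4.81 on the Aff3+/- arrays of replicates 1 and 2, and at 4.61 and 4.89 on the Aff3-/- arrays. The Aff3-/- arrays thus held both the lowest and the highest value, a difference of -0.04 ± 0.14 (SE). Psma5 (alpha5) had the same order, with 4.44 and 4.47 in Aff3+/- and 4.33 and 4.51 in Aff3-/- cells, a difference of -0.03 ± 0.12. Psma7 (alpha4) stood at 5.10 and 5.15 in Aff3+/- and at 5.02 and 5.31 in Aff3-/- cells (+0.04 ± 0.15). For Psma6 (alpha1) the values were 4.31 and 4.36 against 4.28 and 4.41 (+0.009 ± 0.12). In 7 of 7 alpha ring genes the Aff3-/- array was below the Aff3+/- array within replicate 1 and above it within replicate 2, a pattern seen in 24 of all 42 members (57.1%) and in 23.4% of all features. Psma2, Psma3 and Psma4 differed by +0.009, +0.005 and +0.002. Psma8, a testis form of alpha4, was not well above background on any array, with signals of 1.2 to 2.8 intensity units.

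Of the inner rings, Psmb5, Psmb6 and Psmb7 carry the chymotrypsin-like, caspase-like and trypsin-like proteolytic sites that cytokines can replace with the immunoproteasome forms. Psmb5 stood at 5.92 and 5.96 on the Aff3+/- arrays of replicates 1 and 2 and at 5.89 and 6.11 on the Aff3-/- arrays. Its difference was +0.06 ± 0.13 (SE), the highest of this ring, and +0.07 by its other probe. Psmb6 stood at 5.04 and 5.25 in Aff3+/- and at 4.95 and 5.39 in Aff3-/- cells, so that its genotypes differed by +0.02 ± 0.19 while its Aff3-/- arrays lay 0.44 apart. For Psmb7 the values were 3.12 and 3.29 against 3.10 and 3.33 (+0.01 ± 0.14). All 3 catalytic genes thus had the Aff3-/- arrays at both ends of the range.

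The other beta genes encode structural subunits. Psmb3 (beta3) had the lowest difference of the inner rings, -0.06 ± 0.17 (SE), from 5.11 and 5.30 in Aff3+/- and 4.97 and 5.31 in Aff3-/- cells. Psmb2 (beta4) stood at 1.55 and 1.89 in Aff3+/- and at 1.60 and 1.75 in Aff3-/- cells (-0.05 ± 0.16), and here the Aff3+/- arrays were at both ends. Psmb4 (beta7) stood at 5.61 and 5.69 against 5.56 and 5.81 (+0.04 ± 0.14). Psmb1 (beta6), singled out after its values were seen, was the steadiest, at 4.11 and 4.13 against 4.13 and 4.09. It is the gene that was higher on replicate 2 in Aff3+/- but not in Aff3-/- cells, and with normexp or median scaling it was higher in both. Psmb11, the beta5t subunit of thymic cortical epithelium, was not well above background on any array (1.6 to 7.1 intensity units).

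The base was the role group in which 9 of 9 genes were higher in Aff3-/- cells, against 45.5% of all features, with a median of +0.05 (+0.04 to +0.07 under other scalings, deposited values included, but -0.02 when Aff3+/- replicate 1 was left out and -0.11 when Aff3-/- replicate 2 was, and up to +0.24 when Aff3-/- replicate 1 was). None of the 9 was free of overlap. Psmc2, the ATPase Rpt1, had the highest difference, +0.11 ± 0.18 (SE), and +0.13 by its other probe. Its values were 4.55 and 4.80 on the Aff3+/- arrays of replicates 1 and 2 and 4.60 and 4.96 on the Aff3-/- arrays. Psmc3 (Rpt5) stood at 5.41 and 5.61 in Aff3+/- and at 5.38 and 5.84 in Aff3-/- cells (+0.09 ± 0.20, and +0.05 by its other probe). Psmc1 (Rpt2) had the smallest difference of the group, +0.02 ± 0.14, from 4.85 and 4.94 against 4.78 and 5.05. In these ATPase genes the gap between arrays of a genotype was again wider than that between genotypes.

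Psmd2 and Psmd4 encode Rpn1 and Rpn10, which bind ubiquitin chains or the shuttle proteins that carry them. Psmd2 stood at 3.27 and 3.62 in Aff3+/- and at 3.30 and 3.66 in Aff3-/- cells, nearly the same pair of values in each genotype (+0.03 ± 0.20, SE). For Psmd4 they were 4.97 and 5.14 against 4.95 and 5.29 (+0.07 ± 0.17). Psmd1, the Rpn2 scaffold, is named after its values were seen, for the widest gap of the 42 genes. It stood at 3.84 and 4.23 in Aff3+/- and at 3.74 and 4.46 in Aff3-/- cells, a gap of 0.39 and 0.72 beside a genotype difference of +0.06 ± 0.29. Psmc6 (Rpt4), also named afterwards, went the other way, at 2.06 and 1.93 in Aff3+/- and 2.07 and 2.01 in Aff3-/- cells. Psmc4 and Psmc5 differed by +0.04 each.

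The lid had a wide gap between replicates. All 8 genes were higher on the replicate 2 array in both genotypes, by a median of +0.27 in Aff3+/- and +0.43 in Aff3-/- cells. In the base these medians were +0.22 and +0.36, and over both core rings +0.10 and +0.24. With normexp the Aff3+/- gap was wider in the base (+0.29) than in the lid (+0.25). No test of the difference between role groups was made. Between genotypes 4 lid genes were higher and 4 lower, with a median of +0.01 that turned to -0.002 after quantile normalization and to -0.003 for the deposited log2 table. It was -0.14 and -0.20 with Aff3+/- replicate 1 or Aff3-/- replicate 2 left out, and +0.21 and +0.15 with Aff3-/- replicate 1 or Aff3+/- replicate 2 left out. Psmd14, the deubiquitinase Rpn11 that cuts the chain off the substrate, stood at 1.90 and 2.05 in Aff3+/- and at 1.94 and 2.16 in Aff3-/- cells (+0.07 ± 0.14, SE). Its partner Psmd7 (Rpn8) stood at 2.29 and 2.56 against 2.27 and 2.72 (+0.08 ± 0.21). These were the highest differences of the lid, and in both genes the genotypes overlapped.

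At the other end of the lid, Psmd8 (Rpn12) stood at 3.74 and 3.93 in Aff3+/- and at 3.66 and 3.91 in Aff3-/- cells (-0.05 ± 0.15, SE). For Psmd13 (Rpn9) the values were 2.67 and 2.98 against 2.56 and 3.00 (-0.04 ± 0.21). Psmd12 (Rpn5), whose promoter is shown above, stood at 4.15 and 4.41 against 4.06 and 4.55 and differed by +0.03 (+0.03 also by its other probe, whose gaps were 0.39 and 0.48). Psmd11 (Rpn6) stood at 1.82 and 2.18 against 1.76 and 2.23, a difference of -0.003. Both lid genes had the Aff3-/- arrays outermost. Psmd3 (Rpn3) and Psmd6 (Rpn7) differed by -0.008 and +0.03.

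**Figure D4:**
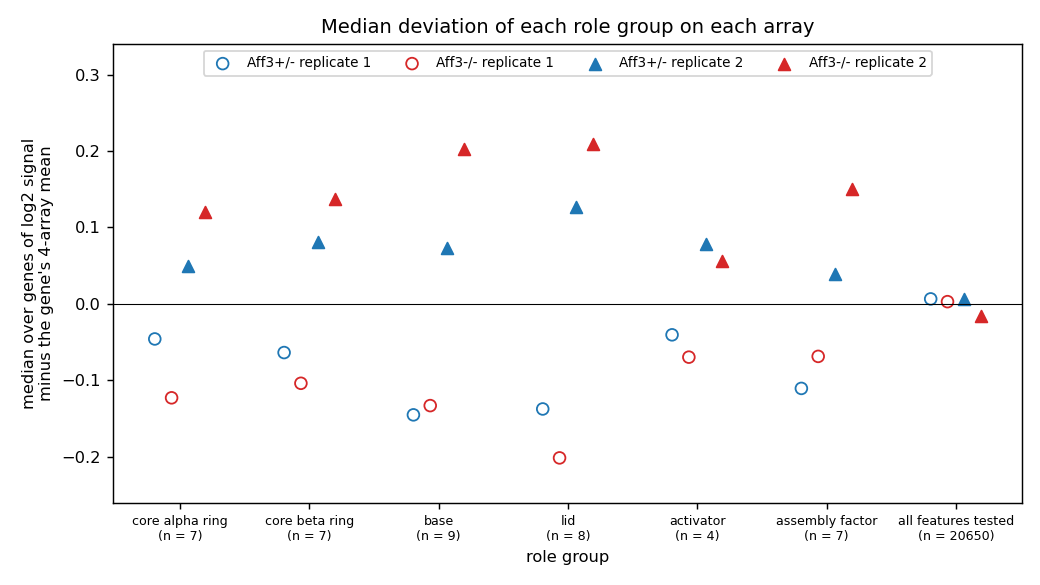
Median over the genes of each role group (x axis, with the number of genes tested) of the log2 signal minus the gene's 4-array mean (y axis), per array; open circles are replicate 1, filled triangles replicate 2, blue Aff3+/- and red Aff3-/-. In 6 of 6 role groups both triangles lie above both circles, with the widest spread in the lid (-0.20 to 0.21), while the 4 medians over all features lie within 0.02 of 0.

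The activators had a median gap between replicates of +0.11 in Aff3+/- and +0.14 in Aff3-/- cells, the latter the narrowest of the role groups, while in Aff3+/- cells the alpha ring was narrower (+0.06). Psme1 and Psme2 encode the PA28 alpha and beta chains, an interferon-induced cap that favours peptide production for antigen presentation. Psme1 stood at 4.98 and 5.08 in Aff3+/- and at 4.90 and 5.05 in Aff3-/- cells (-0.06 ± 0.12, SE). Its probe is printed 10 times on each array, and these spots had an SD of 0.03 to 0.05, which measures the array alone and not the spread between samples. Psme2 stood at 6.56 and 6.60 against 6.58 and 6.64, with a difference of +0.03 ± 0.11 and the smallest gaps of the group. Whether its probe also reads the near-identical Psme2b, which matched no probe of its own, was not tested.

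Psme3 and Psme4 encode the nuclear caps PA28 gamma and PA200, the latter linked to histone turnover. Psme3 stood at 1.43 and 1.65 in Aff3+/- and at 1.53 and 1.66 in Aff3-/- cells (+0.06 ± 0.14, SE). For Psme4 the values were -0.60 and -0.48 against -0.66 and -0.49 (-0.03 ± 0.13). Its dimmer probe gave -0.09 and was lower on replicate 2 by 0.10 and 0.08, where the probe used was higher by 0.13 and 0.17. Of the 11 members with more than 1 probe it was the one whose probes disagreed on the direction of the gap, while for Psmd9 the probes disagreed on that of the genotype difference (+0.001 and -0.07). The activators' median difference was -0.003, and +0.02 with quantile normalization or median scaling.

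Assembly factors had the highest median difference of the role groups, +0.05 over 7 genes, with 6 higher. It was +0.04 to +0.07 under other scalings, but +0.0009 over the 3 genes that the deposited values hold, +0.19 with Aff3-/- replicate 1 left out and -0.03 with Aff3-/- replicate 2 left out. The 4 chaperones of the alpha ring, Psmg1 to Psmg4, were all on the higher side. Psmg2, which encodes PAC2, had the largest difference of all members and the smallest unadjusted p, +0.13 ± 0.13 (SE, unadjusted p = 0.35 with limma). It stood at 2.64 and 2.73 on the Aff3+/- arrays of replicates 1 and 2 and at 2.73 and 2.90 on the Aff3-/- arrays, so that 1 array of each genotype met at the same level. It was also the 1 gene of 42 whose direction held under each alternative that could be run for it, from +0.05 to +0.22. The deposited values do not hold it. Psmg1 (PAC1) stood at 3.62 and 3.78 against 3.64 and 3.94 (+0.09 ± 0.16, and +0.06 by its other probe), and Psmg3 differed by +0.08.

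The chaperones of the base are Psmd5, Psmd9 and Psmd10. Psmd10, or gankyrin, had the lowest difference of all members, -0.08 ± 0.15 (SE), and -0.06 by its other probe. It stood at 0.47 and 0.22 in Aff3+/- and at 0.38 and 0.16 in Aff3-/- cells, and so was lower on the replicate 2 array by 0.25 and 0.22 while most members were higher. Psmd9 (p27) stood at 0.26 and 0.47 against 0.24 and 0.49 (+0.001 ± 0.16), the pattern of the other members. Psmg4 (PAC4), named after its values were seen, joined Psmd10 and Psmc6 as the 3 genes lower on replicate 2 in both genotypes, at 1.73 and 1.62 against 1.82 and 1.62. These 3 were also lower there with quantile normalization, normexp and median scaling. Psmd5 (S5b) differed by +0.05 and was higher on replicate 2 by 0.22 and 0.30.

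The immunoproteasome subunits, which interferon induces in place of the constitutive catalytic ones, had gaps of unlike direction in the processed signals. Psmb9, which replaces Psmb6, was lower on replicate 2 in both genotypes, at 5.48 and 5.39 in Aff3+/- and 5.51 and 5.28 in Aff3-/- cells. Psmb8, which replaces Psmb5, stood at 4.80 and 4.98 against 4.78 and 4.84. Its gap of +0.18 in Aff3+/- cells was as wide as the members' median. Psmb10, which replaces Psmb7, stood at 5.42 and 5.42 against 5.35 and 5.50. Their median gaps were -0.0009 and +0.06, and 1 of 3 was higher on replicate 2 in both genotypes, a count that was 2 with quantile normalization or median scaling, and 2 of the 2 that the deposited values hold, with gaps of +0.10 and +0.13. The difference in gap from the members was not tested. Between genotypes they differed by -0.04, -0.08 and +0.007, and 0 of 3 passed the threshold.

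Other parts and partners of the proteasome went with the members in part. Of 11 such genes 10 were tested, 6 higher and 4 lower in Aff3-/- cells (median +0.05, 0 past the threshold), where 45.5% of all features were higher. On replicate 2, 7 (70%) were higher in both genotypes, against 90.5% of members and 36.0% of all features. This share stayed at 70% with normexp. With quantile normalization it was 80%, against 90.5% of members and 37.5% of all features. Median scaling gave 90%, against 92.9% of members and 41.3% of all features. The deubiquitinases Uchl5 and Usp14 had gaps of 0.53 and 0.92 and of 0.42 and 0.51 in Aff3+/- and Aff3-/- cells, and the ubiquitin receptor Adrm1 of 0.33 and 0.59. Sem1, the small lid subunit, was lower on replicate 2 by 0.08 and 0.02. Ecpas had gaps of -0.02 and +0.21, and Akirin2 of +0.02 and -0.04. The arrays of the genotypes did not overlap for Sem1 (-0.10 ± 0.11, SE) and for Akirin2, a nuclear import factor for proteasomes (+0.11 ± 0.11). These 2 of 10 genes (20.0%) are near the 19.5% of all features.

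Among 16 genes of ubiquitin supply and shuttling 14 (87.5%) were higher in Aff3-/- cells (median +0.04, 0 past the threshold), against 45.5% of all features. On replicate 2, 11 (68.8%) were higher in both genotypes, against 36.0% of all features. This share stayed at 68.8% with normexp. It was 81.2% with quantile normalization and with median scaling, against 37.5% and 41.3% of all features. The arrays of the genotypes did not overlap for 18.8% of the list, near the 19.5% of all features. The activating enzyme Uba1 had gaps of 0.30 and 0.39 and the shuttle Rad23b of 0.27 and 0.38. Of the 5 transcription factor genes 0 passed the threshold. Nfe2l1, which encodes NRF1, stood at -1.93 and -2.53 in Aff3+/- and at -1.72 and -2.34 in Aff3-/- cells, lower on replicate 2 by 0.61 and 0.62. Nfe2l2, which encodes NRF2, was higher there by 0.43 and 0.33. Nfya and Nfyb were lower in both genotypes, and Nfyc in Aff3+/- cells alone. Transcript levels of these factors do not measure their activity, which for NRF1 is set by processing of the protein.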

How the data were processed

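Cy3-labelled RNA of 2 Aff3+/- and 2 Aff3-/- samples was measured on 1 array each. Agilent Feature Extraction 10.7.1.1 read the arrays, per the submitters' processing notes. The deposited scanner signals are linear intensity values, and per the file headers the processed signal used here was background-subtracted and detrended by Feature Extraction, not normalized between arrays. A second deposited table holds log2 values, row-centred on the median of the 4 arrays, in the direction of the scanner values. Its per-array scaling and choice of probes stay unknown, and its column medians were 0.13, -0.04, -0.03 and 0.02 (Aff3+/- 1, Aff3-/- 1, Aff3+/- 2, Aff3-/- 2).

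Control spots (1377 of 44397) and outlier spots were left out. The log2 processed signal was scaled to each array's 75th percentile (1278 to 1355 intensity units), spots of a probe were averaged, and a probe was kept if either genotype had both its arrays well above background. Of 39429 probes 26581 were named through RefSeq transcript accessions (GRCm38.p6 table, used for names and promoters). Per the file headers the array design used an earlier build, so no probe coordinates are given. For genes with several probes the brightest on average was used, giving 20650 features. Genotypes were compared with limma 3.58.1 in R 4.3.3 (moderated linear model, two-sided, Benjamini-Hochberg over all features, genotype as the one term). Lists are described by counts and medians, with no test. The fit was checked on simulated data with known changes.

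Named genes were, per role group, the 2 highest and 2 lowest differences, the catalytic subunits, Psmd14, Psmd2, Psmd4, the activators, Psma8 and Psmb11. Members, lists and motifs were chosen with earlier results of these data known. All 4 arrays lay on 1 slide with 1 scan, so no slide or scan block was run, and no arrays were identical. Alternatives varied the background correction, scaling, filter, choice of probe and variance model, took the deposited values, added the replicate number as a block, or left out an array.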

Additional observations from a re-analysis of the deposited data

How the results depend on the processing

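No feature passed the adjusted threshold under any of the 13 alternatives run, with smallest adjusted p from 0.15 to 1.00. The count of members without overlap was 1 with normexp, with quantile normalization, with median scaling and when probes of 1 gene were averaged, against 0 as reported, and 5 to 37 when 1 array was left out. The share of all features without overlap was 19.6% to 21.8% under those 4 alternatives and 45.5% to 73% with 1 array left out. The assembly factors' median difference ranged from -0.0267 to +0.1945 over the left-out arrays. Medians of the other role groups moved by less than the SD between replicates. With 2 arrays per genotype that SD comes from the same gap that leaving out an array acts on, so this does not show stability. Leaving out an array turned the sign for 9 to 29 of the 42 members. Normexp was planned on the mean signal. The files hold the median signal, on which it was run, an alternative chosen after seeing the data, as were those for the gap between replicates. As for the replicate number, the gap between replicates correlated between the genotypes over features (Pearson r = 0.56 over 20636 features and 0.83 over the 42 members, which share arrays). The labels do not say what the number stands for, and 2 pairs cannot settle it. With the replicate number as a block, 0 features passed the threshold (smallest adjusted p 0.61, and 0.85 among members), 1462 rather than 420 had an unadjusted p under 0.05, and the members' median difference was +0.03. With 2 arrays per genotype, differences of the size seen here are within the error.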
